A study of Homo sapiens with 6 samples.

Results

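The TGF-beta and BMP signalling genes described here were 47 genes taken from a fixed list of names, among the 62703 genes of the count table. All 47 had a row, and 44 of them were among the 17901 genes with enough counts to be tested. They comprised ligands and the proteins that hold or release them outside the cell, receptors, SMAD transcription factors, inhibitors of the SMADs and target genes. The list was not chosen on measured values, but it was drawn up with earlier results of these data known.

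TGF-beta, activin and BMP ligands are secreted dimers of one protein family. They bring together type I and type II serine/threonine kinase receptors at the cell surface, and the type II receptor activates the type I receptor. TGF-beta and activin receptors pass the signal mainly to SMAD2 and SMAD3, and BMP receptors mainly to SMAD1, SMAD5 and SMAD9. Both groups of SMADs join SMAD4 to reach DNA, and the kinase module of the Mediator complex, to which MED12 belongs, is known to phosphorylate activated SMADs. In prostate epithelium TGF-beta signalling is known for restraining growth, and tumour cells often lose part of this response.

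Poly(A) RNA was sequenced with strand-specific libraries from 22Rv1, an androgen-responsive human prostate cancer cell line obtained from a cell bank and grown in serum-containing medium. Cells received 25 pmol of a pool of non-targeting small interfering RNAs (siCtrl, n = 3) or of a pool against MED12 (siMED12, n = 3), and RNA was collected on day 3 after transfection. Both groups therefore share the line, the transfection reagent and the RNA dose, and no library came from untransfected cells. The study's methods describe its experiments as done in biological replicates, but the labels do not say which cultures these libraries came from, so p-values measure the spread between these libraries. A pool of small interfering RNAs lowers its target without removing it.

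The libraries held 16136699 to 17012788 counts, and 25802 to 27404 genes had at least 1 count. MED12 stood at 67.8, 77.7 and 72.6 CPM (counts relative to the library total, scaled by the TMM method) in siCtrl replicates 1 to 3 and at 23.9, 14.97 and 30.1 CPM in siMED12, a log2 fold change of -1.66 (edgeR quasi-likelihood test, adjusted p = 0.0314). Libraries with the same replicate number resembled each other across groups, and mitochondrially encoded genes took 4.43% and 4.79% of counts in the libraries numbered 1, 6.31% and 6.03% in those numbered 2 and 10.0% and 10.1% in those numbered 3. A paired model that includes this number (the replicate block) is therefore given beside the model without it. All 8 luminal prostate markers given here, among them KLK3 and KRT8, were above 10 CPM in every library, with a summed level of 2236 to 2411 CPM in siCtrl against 2063 to 2161 CPM in siMED12. The markers in this sum moved in both directions. KLK3 lay at 28.27 to 44.25 CPM in siCtrl against 10.4 to 17.8 CPM in siMED12, and KLK2 at 61.9 to 93.9 against 18.8 to 38.3 CPM. HOXB13 lay at 214 to 287 CPM in siCtrl against 296 to 365 CPM in siMED12, and CDH1 at 426 to 452 against 519 to 571 CPM. The summed level of 9 stromal markers was 29.3 to 41.2 CPM in siCtrl and 29.6 to 45.3 CPM in siMED12. Most of it came from COL1A1 (14.9 to 27.4 CPM over the libraries) and LUM (9.70 to 17.9 CPM), while THY1 and FAP were at 0. The summed level of 7 endothelial markers was at most 0.536 CPM (CDH5 and KDR at 0) and that of 6 leukocyte markers at most 1.904 CPM (CD3E at 0).

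Promoter sequence is shown for SMOC1 and PMEPA1, which had the largest decreases among the members above 1 CPM, for LTBP1 and BMPR2, which had the largest fold increases among those above 5 CPM, and for SMAD6, which is the only member whose window held the palindromic SMAD-binding element. The windows are the 250 bases before the RefSeq start on GRCh38.p14: SMOC1 at chr14:69879166-69879415 (plus strand), LTBP1 at chr2:32946703-32946952 (plus strand), BMPR2 at chr2:202376077-202376326 (plus strand) and SMAD6 at chr15:66701986-66702235 (plus strand). For PMEPA1 on the minus strand, 64 bases inside the first exon of the Gencode annotation were left out, and the 186 bases at chr20:57711537-57711722 remain, which overlap the antisense RNA gene NKILA. The SMOC1 start used here lies inside the gene as annotated by Gencode, which begins at position 69854131. Capitals mark GTCT, the core of the SMAD-binding element, GGCGCC, a GC-rich element bound by BMP SMADs, and CACGTG, the E-box of MYC and MAX, each on either strand.
SMOC1: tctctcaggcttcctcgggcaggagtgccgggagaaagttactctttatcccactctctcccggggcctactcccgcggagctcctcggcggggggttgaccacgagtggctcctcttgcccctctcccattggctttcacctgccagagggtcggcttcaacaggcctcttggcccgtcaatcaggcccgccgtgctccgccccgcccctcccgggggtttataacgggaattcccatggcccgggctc
PMEPA1: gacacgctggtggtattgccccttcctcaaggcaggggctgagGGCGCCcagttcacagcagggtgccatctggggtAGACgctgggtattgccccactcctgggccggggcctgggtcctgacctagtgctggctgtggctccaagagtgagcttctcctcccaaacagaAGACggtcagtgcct
LTBP1: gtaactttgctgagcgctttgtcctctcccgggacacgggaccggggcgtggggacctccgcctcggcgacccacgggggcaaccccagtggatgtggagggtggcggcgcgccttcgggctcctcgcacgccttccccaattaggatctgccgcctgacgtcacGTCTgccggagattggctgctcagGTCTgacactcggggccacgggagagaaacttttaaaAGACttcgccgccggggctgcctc
BMPR2: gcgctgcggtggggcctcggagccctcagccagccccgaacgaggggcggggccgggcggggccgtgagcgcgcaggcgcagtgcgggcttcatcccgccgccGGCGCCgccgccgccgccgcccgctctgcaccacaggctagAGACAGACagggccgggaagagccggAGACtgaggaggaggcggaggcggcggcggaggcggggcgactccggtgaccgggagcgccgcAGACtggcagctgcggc
SMAD6: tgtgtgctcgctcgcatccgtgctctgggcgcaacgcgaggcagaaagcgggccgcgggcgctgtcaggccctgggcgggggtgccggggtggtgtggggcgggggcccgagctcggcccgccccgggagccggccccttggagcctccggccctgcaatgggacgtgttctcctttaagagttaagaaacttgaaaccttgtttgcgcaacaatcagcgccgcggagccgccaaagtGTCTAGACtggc

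The GTCT core was present in the windows of 32 of the 42 members that had one (76.2%), against 75.0% of the 11711 tested genes with a window. It was found in 7 of the 9 members with a window that were lower in siMED12 with the block (77.8%) and in 8 of the 11 that were higher (72.7%). The element GGCGCC was present in 26.2% of member windows and 25.6% of all. It occurred in 1 of the 9 windows of lower members, that of PMEPA1, and in 5 of the 11 windows of higher members. CACGTG was present in 14.3% of member windows and 8.91% of all, in 2 windows of higher members and in 0 of the 9 windows of lower members. The palindrome GTCTAGAC, which contains the GTCT core on both strands, was in 0.154% of all windows, and TGGCGCC, which contains GGCGCC, was in 7.45% of all windows and, among the members, in that of SMAD2 alone. These matches describe the letters of the windows, and BMP2, BMP7, KLF10, NOG and SKI had no window.

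Without the block, 0 members were higher and 1 was lower (adjusted p under 0.05), against 0.151% of all tested genes higher and 0.413% lower. At an unadjusted p below 0.05 there were 5 higher and 6 lower members in this edgeR fit, where 7.65% of all genes were higher and 7.93% lower. The DESeq2 Wald test, which called 1.85% of all genes higher and 2.75% lower, gave 2 higher (LTBP1 and BMPR2) and 2 lower (SMOC1 and PMEPA1). With the replicate block, 11 members were higher and 10 were lower, where 17.1% of all tested genes were higher and 16.2% lower. The calls covered 47.7% of the members and 33.3% of all genes. The median log2 fold change with the block was -0.03 over the members and 0.02 over all genes, so that the list moved in both directions. Of 26 tested members of the TGF-beta and activin arm, 17 lay above 0 and 9 below, with 8 higher and 5 lower by the blocked test. Of 17 tested members of the BMP arm, 3 lay above 0 and 14 below, with 2 higher and 5 lower. These signs depend on scaling for genes close to 0: with the block and library size as the only scaling, 7 members of the BMP arm lay above 0 and 10 below. The counts also depend on how the list assigned genes to arms. Each gene was put in 1 arm, except SMAD4, which was put in both. BAMBI, which dampens TGF-beta and BMP signals, was counted in the BMP arm only. In bulk RNA, a change in the number of cells of a kind and a change in RNA per cell cannot be told apart.

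**Figure D1:**
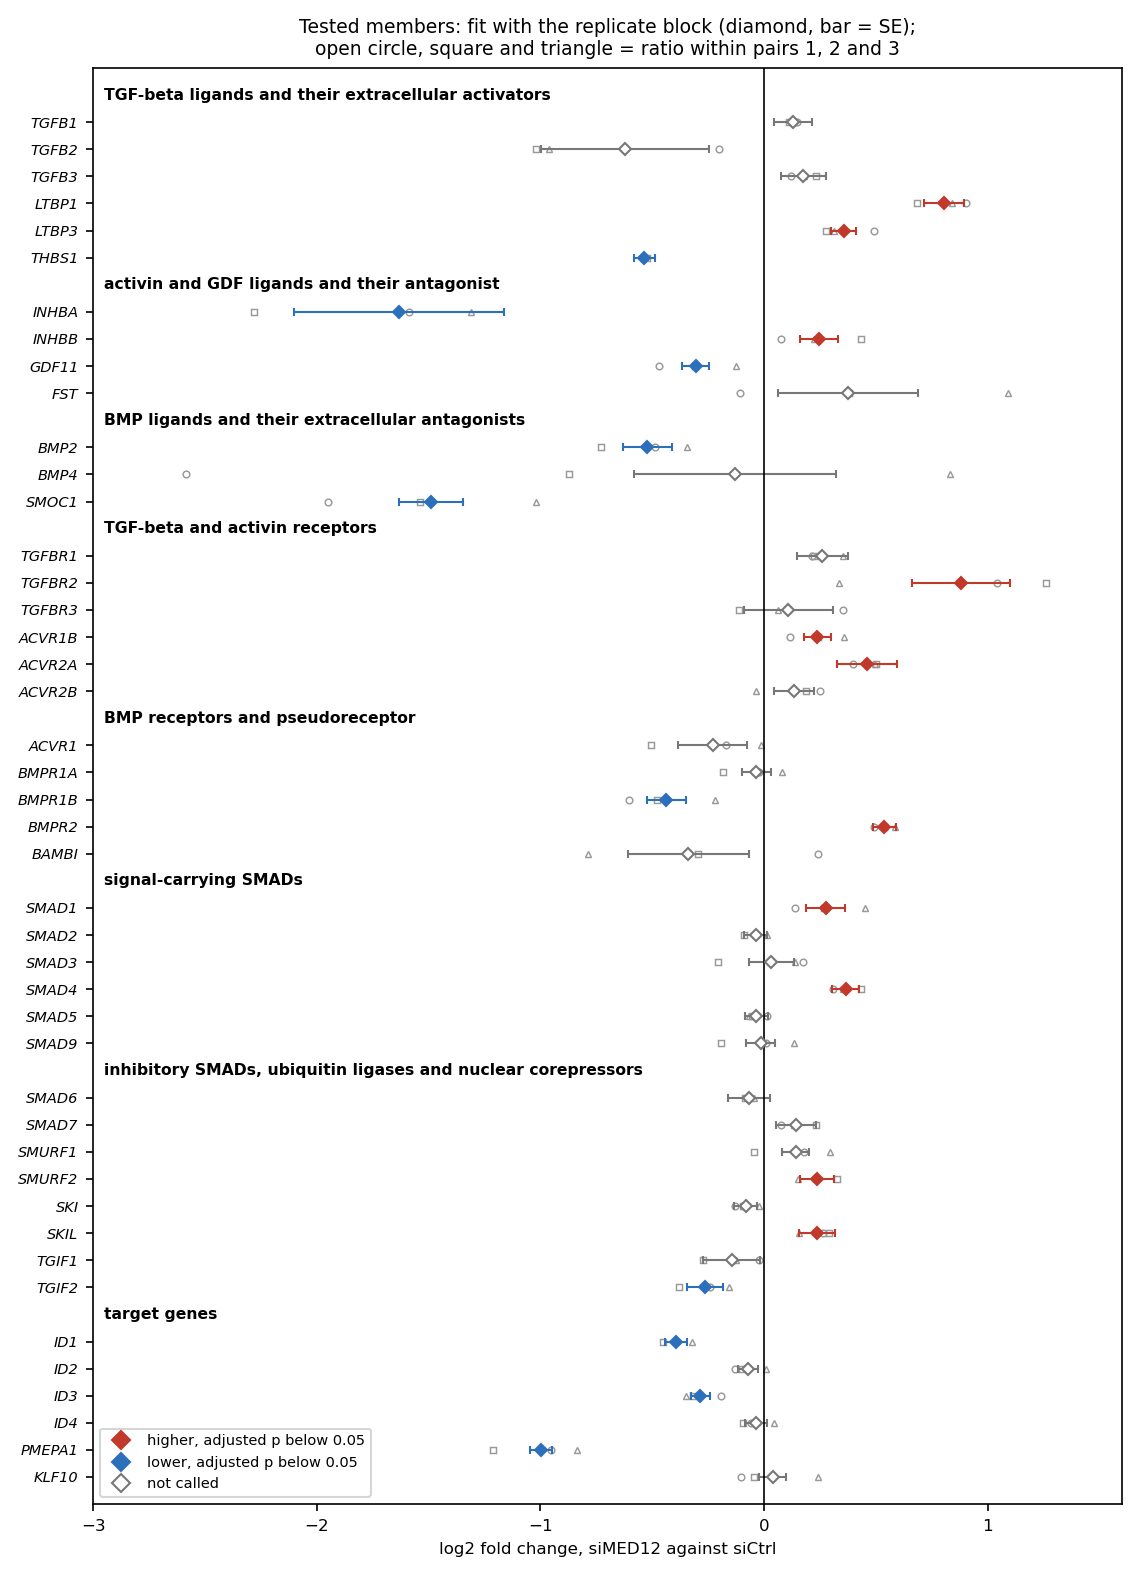
Log2 fold changes (siMED12 against siCtrl, x axis) of the 44 tested members by branch, from the edgeR fit with the replicate block; bars are standard errors and the open symbols are the ratios within each pair of same-numbered libraries. The 11 red diamonds lie above 0 and the 10 blue diamonds below, and SMOC1 (-1.49) and PMEPA1 (-0.998) lie far to the left with short error bars, whereas INHBA and TGFB2 have wide ones.

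Levels were compared per kilobase of annotated exon in siCtrl. Target genes stood highest: ID3 was at 180.7 CPM per kilobase, ID1 at 111.5, ID2 at 82.5 and PMEPA1 at 63.2. THBS1 at 16.8 CPM per kilobase was the highest of the ligands and activators and exceeded TGFB1 at 7.25. Among the receptors ACVR1B was highest at 10.1 CPM per kilobase, followed by BMPR2 at 6.17 and BMPR1A at 5.27, and the TGF-beta receptor TGFBR2 was low at 0.391. Among the signal-carrying SMADs, SMAD5 stood at 10.3, SMAD9 at 9.13, SMAD1 at 3.22, SMAD4 at 2.94, SMAD2 at 2.59 and SMAD3 at 1.95 CPM per kilobase. This scale divides by all annotated exonic bases, which number 36426 for SMAD2 and 9040 for SMAD5, so the order of these genes depends on the annotation. On the CPM scale, which takes no account of length, SMAD2 was at 94.4 and SMAD5 at 93.2 CPM in siCtrl. BMP7, NOG and ENG were not tested, with at most 5, 6 and 5 counts in any library. BMP7 is a BMP ligand, NOG binds BMPs outside the cell, and ENG is a coreceptor known from endothelium.

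**Figure D2:**
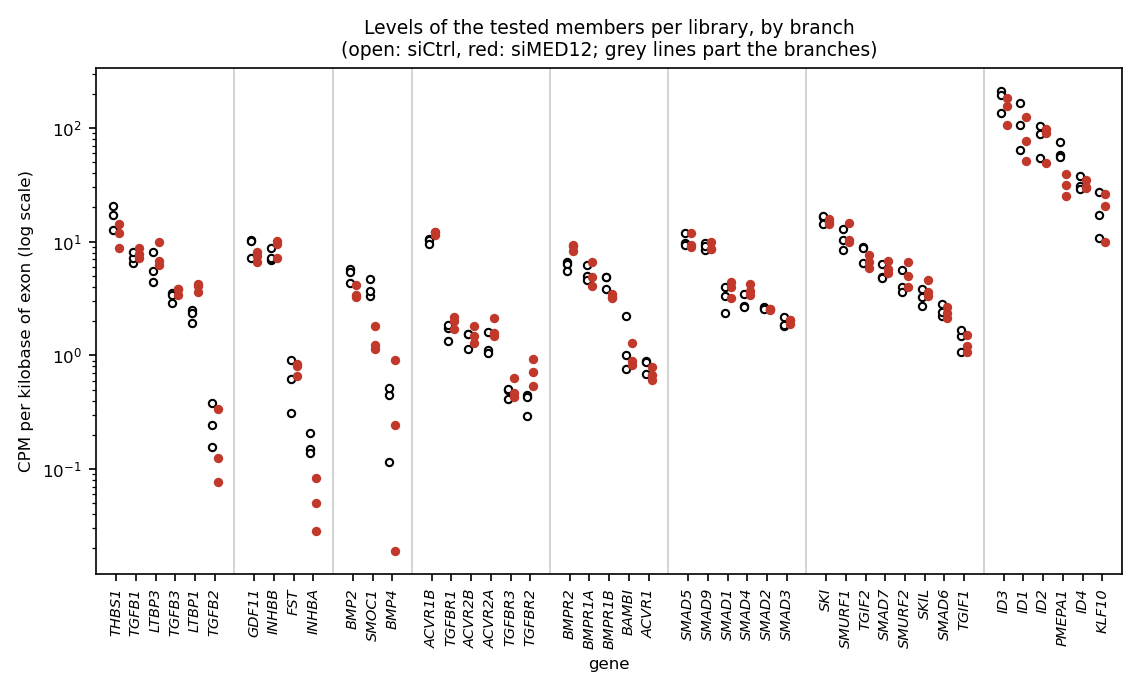
CPM per kilobase of exon (log scale, y axis) of the tested members in each siCtrl library (open circles) and siMED12 library (red circles), grouped by branch in the order of the text. ID3 at 180.7 and ID1 at 111.5 in the siCtrl mean top the plot, TGFBR2 lies at 0.391, and the red circles of SMOC1 and PMEPA1 lie wholly below the open ones.

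Among the TGF-beta ligands and their activators, LTBP1 and LTBP3 were higher in siMED12 and the activator THBS1 was lower in the blocked fit, while no ligand passed the test. Of the related LTBP2 and LTBP4, which are not members, neither was called: LTBP4 stood at 136.1 CPM in siCtrl against 135.5 CPM in siMED12 (blocked log2 fold change 0.006 ± 0.05; edgeR, adjusted p = 0.942), and LTBP2 had 0.0019 ± 0.16 (adjusted p = 0.994). LTBP1 (chr2:32946953-33399509, GRCh38 as all gene positions here) encodes a protein that binds latent TGF-beta and tethers it to the matrix. Its levels were 14.2, 18.5 and 17.3 CPM in siCtrl replicates 1 to 3 and 26.4, 29.6 and 31.0 CPM in siMED12. The lowest siMED12 library was above the highest siCtrl library. The log2 fold change was 0.80 ± 0.15 (SE; edgeR without block, adjusted p = 0.0616) and 0.80 ± 0.09 with the block (adjusted p = 2.9e-09), a 1.75-fold difference. LTBP3 (chr11:65538559-65558930), a related latent TGF-beta binding protein, measured 50.9, 64.2 and 92.7 CPM in siCtrl against 71.5, 77.8 and 115 CPM in siMED12. The groups overlapped, but each siMED12 library was above the siCtrl library of its number, by 40.4%, 21.1% and 24.0%. Its log2 fold change was 0.35 ± 0.24 without the block (edgeR, adjusted p = 0.565) and 0.36 ± 0.06 with it (adjusted p = 3.3e-06).

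THBS1 (chr15:39581079-39599466), a matricellular glycoprotein that can release TGF-beta from its latent form, measured 189, 156 and 117 CPM in siCtrl against 130, 109 and 80.0 CPM in siMED12. The groups overlapped, yet the changes within pairs were nearly the same, at -31.3%, -30.4% and -31.4%. This gave a log2 fold change of -0.54 ± 0.21 without the block (edgeR, adjusted p = 0.274) and -0.54 ± 0.05 with it (adjusted p = 6.8e-12). The exons of THBS1 overlap FSIP1 and an antisense gene on the other strand over 694 bases, and those of LTBP1 and LTBP3 overlap opposite-strand genes over 249 and 146 bases; the use of strand in counting was not stated. TGFB1 lay at 21.4 to 26.2 CPM in siCtrl against 23.6 to 28.7 CPM in siMED12, with a blocked log2 fold change of 0.13 (adjusted p = 0.256 in edgeR), and TGFB3 at 0.18 (adjusted p = 0.182). TGFB2 was close to the detection limit, with 15 to 39 counts in siCtrl and 8 to 34 in siMED12, and 34.2% of its exonic bases overlap other genes. Its blocked log2 fold change was -0.62 ± 0.38 (edgeR, adjusted p = 0.215).

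In the activin and GDF branch, the GDF11 ligand and the activin subunit INHBA were lower in the blocked fit and the other activin subunit, INHBB, was higher. GDF11 (chr12:55743122-55757264) encodes a secreted ligand that uses activin receptors. It measured 91.4, 88.8 and 62.9 CPM in siCtrl against 66.1, 71.6 and 57.7 CPM in siMED12. Both groups had their lowest value in replicate 3, and siCtrl replicate 3 lay within the siMED12 range. In the fit the log2 fold change was -0.31 ± 0.16 without the block (edgeR, adjusted p = 0.39) and -0.31 ± 0.06 with it (adjusted p = 8.5e-05). GDF11 shares 378 exonic bases with SARNP on the opposite strand.

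INHBA, the beta A subunit of activin, was rare, with 21, 18 and 28 counts in siCtrl and 7, 4 and 11 counts in siMED12. The groups did not overlap. Its blocked log2 fold change was -1.63 ± 0.47 (edgeR, adjusted p = 0.00605; 0.153 without the block), and its mean stayed under 1 CPM. INHBB, the beta B subunit, was at 22.0 to 28.0 CPM in siCtrl against 23.2 to 32.7 CPM in siMED12, with a blocked log2 fold change of 0.25 (edgeR, adjusted p = 0.0224). Without the libraries numbered 2 this value was 0.13 (adjusted p = 0.409), and without those numbered 3 it was 0.26 (adjusted p = 0.061). FST, follistatin, which binds activins, had 14 to 42 counts in siCtrl and 29 to 39 in siMED12, and its blocked log2 fold change of 0.38 ± 0.31 did not pass (edgeR, adjusted p = 0.387).

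In the BMP ligand branch, the extracellular antagonist SMOC1 and the ligand BMP2 were lower in the blocked fit. The remaining tested member, BMP4, was not called, and its sign differed between fits. SMOC1 (ENSG00000198732.11, chr14:69854131-70032366), a secreted matricellular protein that restrains BMP signalling, measured 20.6, 14.4 and 15.97 CPM in siCtrl against 5.35, 4.97 and 7.89 CPM in siMED12. The highest siMED12 library was well below the lowest siCtrl library. SMOC1 was the member called without the block, with a log2 fold change of -1.49 ± 0.24 (edgeR, adjusted p = 0.0445), and the blocked value was -1.49 ± 0.14 (adjusted p = 6.2e-11), a 2.81-fold difference. Leaving out single libraries gave -1.72 to -1.35, and of those 6 fits the one without siMED12 replicate 3 kept the call (edgeR, adjusted p = 0.0385) and the other 5 did not (up to 0.224). The fits without replicate 1 or 2 of either group called 0 of all tested genes, so loss of the call there is not particular to SMOC1. The fit without siCtrl replicate 3 did call genes, 5 higher and 37 lower of 18336, and SMOC1 was not among them. The call of SMOC1 was also lost with library size as the only scaling (edgeR, adjusted p = 0.0558).

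BMP2 (chr20:6767686-6780246), a BMP ligand, measured 20.5, 19.1 and 15.4 CPM in siCtrl against 14.6, 11.5 and 12.1 CPM in siMED12. The groups did not overlap, though siMED12 replicate 1 came close to siCtrl replicate 3. Its log2 fold change was -0.52 ± 0.17 without the block (edgeR, adjusted p = 0.199) and -0.52 ± 0.11 with it (adjusted p = 0.000255). BMP4, another BMP ligand, had 6, 22 and 26 counts in siCtrl and 1, 13 and 45 in siMED12. The counts differed more between replicate numbers than between treatments, and the fitted value was -0.13 ± 0.45 with the block and 0.12 ± 0.94 without it on the log2 scale. No direction can be read from these counts.

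**Figure D3:**
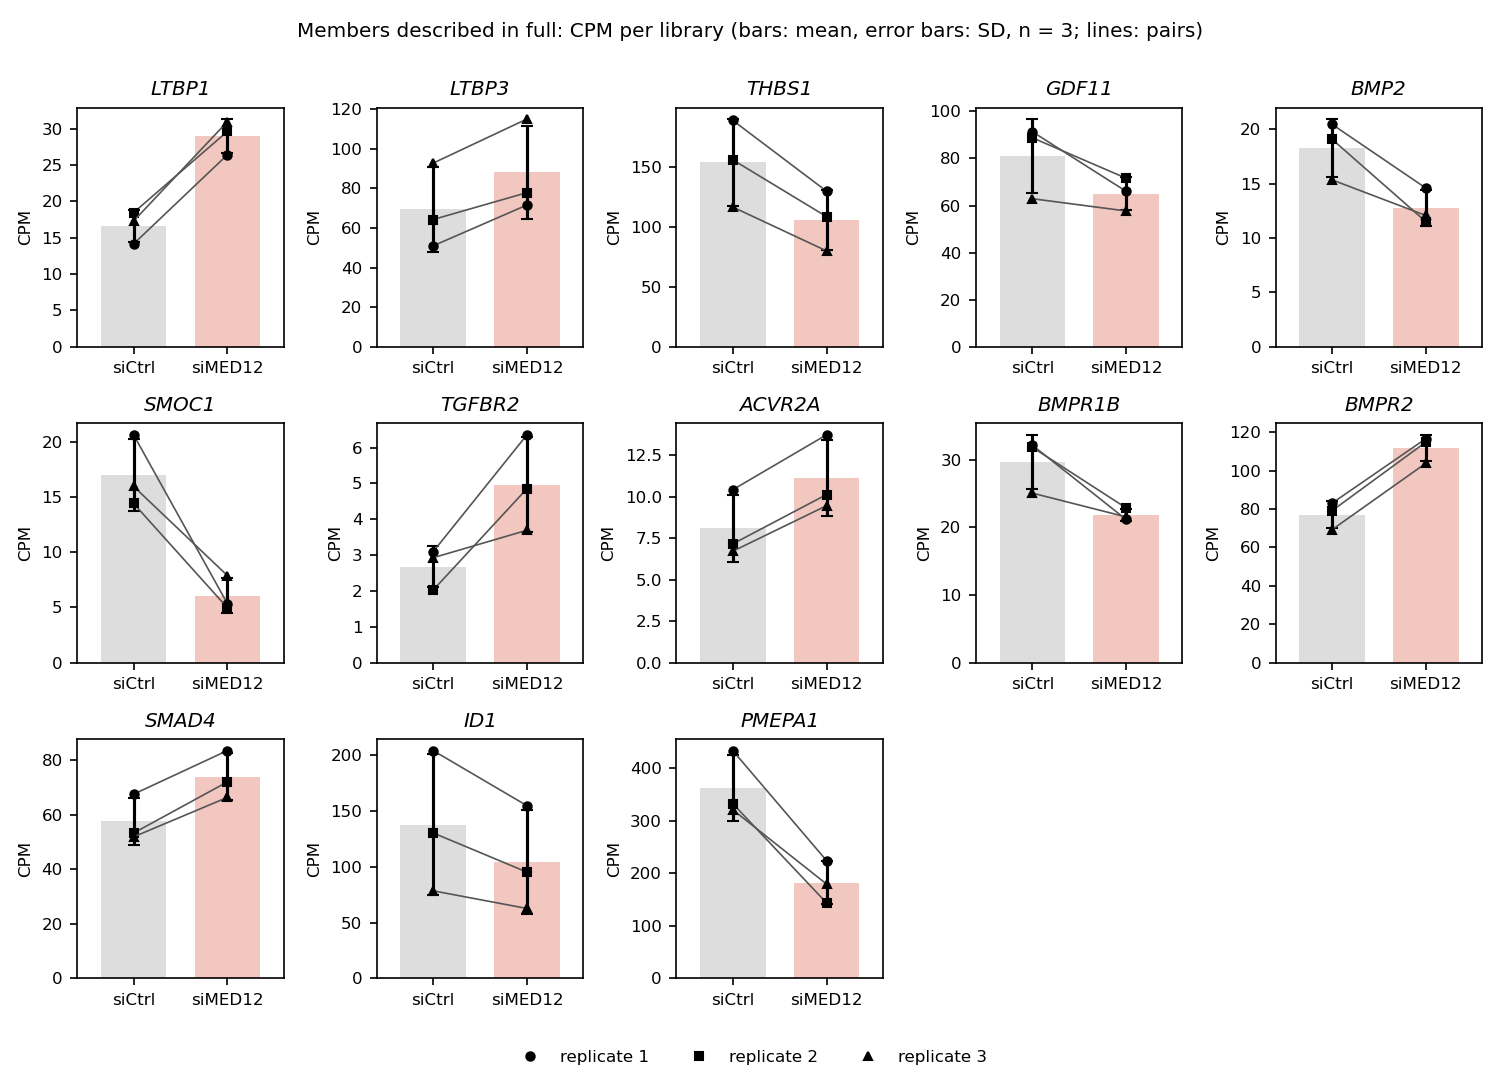
CPM in each library (y axis, from 0) of the 13 members described in full; bars are group means, error bars are SD (n = 3) and lines join libraries of the same replicate number. SMOC1 (at most 7.89 CPM in siMED12 against at least 14.4 in siCtrl), PMEPA1, LTBP1 and BMPR2 are among the genes that separate the groups, whereas ID1 and LTBP3 overlap between groups but shift the same way in all 3 pairs.

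All 6 TGF-beta and activin receptors tested among the members lay above 0, in every scaling and test tried on all 6 libraries. The blocked test called 3 of them higher and 0 lower, where 17.1% of all tested genes were higher and 16.2% lower. TGFBR3 and ACVR2B were below 0 in the fit without siMED12 replicate 1, and TGFBR3 also in the blocked fit without the libraries numbered 1. ACVR1C, a related type I receptor outside the member list with 23 to 48 counts a library, had a blocked log2 fold change of -0.37 ± 0.30 (edgeR, adjusted p = 0.38), with -23.0%, -17.8% and -26.2% within pairs. TGFBR2 (chr3:30606601-30694142), the type II receptor that binds TGF-beta, measured 3.09, 2.02 and 2.93 CPM in siCtrl against 6.36, 4.85 and 3.69 CPM in siMED12. Every siMED12 library was above every siCtrl library, but replicate 3 differed by 26.2% where replicates 1 and 2 differed by 105.4% and 139.8%. TGFBR2 had a log2 fold change of 0.89 ± 0.29 without the block (edgeR, adjusted p = 0.195) and 0.88 ± 0.22 with it (adjusted p = 0.00147). At 32 to 107 counts a library this receptor was thinly covered, and 1 of the 3 blocked fits without a pair gave an adjusted p of 0.0508.

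ACVR2A (chr2:147844517-147930826), a type II receptor for activins, measured 10.4, 7.15 and 6.71 CPM in siCtrl against 13.7, 10.1 and 9.45 CPM in siMED12. The groups overlapped, and within pairs ACVR2A was higher by 31.8%, 41.5% and 41.0%. This corresponded to a log2 fold change of 0.46 ± 0.24 without the block (edgeR, adjusted p = 0.413) and 0.46 ± 0.13 with it (adjusted p = 0.00653), and 541 of its exonic bases overlap ORC4 and another gene on the opposite strand. ACVR1B, the activin type I receptor, lay at 53.6 to 59.9 CPM in siCtrl against 65.0 to 68.7 CPM in siMED12, with groups that did not overlap and a blocked log2 fold change of 0.24 ± 0.06 (edgeR, adjusted p = 0.00199). Its call was lost in 1 of the 3 blocked fits without a pair (edgeR, adjusted p = 0.0603). TGFBR1, the TGF-beta type I receptor, had a blocked log2 fold change of 0.26 ± 0.11 (edgeR, adjusted p = 0.0707). The coreceptor TGFBR3 and the type II receptor ACVR2B had 0.11 and 0.13 and were not called.

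Among the BMP receptors, the type II receptor was higher and a type I receptor was lower. BMPR2 (chr2:202376327-202567751) measured 83.0, 79.1 and 69.2 CPM in siCtrl against 117, 115 and 104 CPM in siMED12. The groups were far apart relative to their spread. BMPR2 had a log2 fold change of 0.54 ± 0.10 without the block (edgeR, adjusted p = 0.0654) and 0.54 ± 0.05 with it (adjusted p = 7.3e-11), and the increase within pairs was 40.5%, 45.2% and 50.0%. BMPR1B (chr4:94757955-95158448), a type I receptor, measured 32.1, 31.8 and 25.1 CPM in siCtrl against 21.2, 22.9 and 21.5 CPM in siMED12. All siMED12 libraries were below all siCtrl libraries, and the difference was smallest in replicate 3. For BMPR1B the log2 fold change was -0.44 ± 0.14 without the block (edgeR, adjusted p = 0.178) and -0.44 ± 0.09 with it (adjusted p = 0.00011). The other type I receptors ACVR1 and BMPR1A had blocked values of -0.23 ± 0.16 and -0.04 ± 0.07. BAMBI, a pseudoreceptor without a kinase domain that dampens TGF-beta and BMP signals, had 27 to 78 counts in siCtrl and 30 to 44 in siMED12 and was not called.

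Of the SMADs that carry the signal, the shared partner SMAD4 and the BMP SMAD1 were higher in the blocked fit and the other 4 were not called. SMAD4 (chr18:51028528-51085045) measured 67.6, 53.3 and 51.9 CPM in siCtrl against 83.6, 72.1 and 66.4 CPM in siMED12. The groups overlapped, since siCtrl replicate 1 exceeded siMED12 replicate 3, but each siMED12 library was higher by 23.7%, 35.2% and 27.9% from its partner. SMAD4 had a log2 fold change of 0.36 ± 0.14 without the block (edgeR, adjusted p = 0.257) and 0.36 ± 0.06 with it (adjusted p = 3.9e-06), and 967 of its exonic bases overlap a gene on the same strand. SMAD1 lay at 16.7 to 28.4 CPM in siCtrl against 22.9 to 31.2 CPM in siMED12, with a blocked log2 fold change of 0.28 ± 0.09 (edgeR, adjusted p = 0.0118). SMAD2, at 92.3 to 96.2 CPM in siCtrl against 90.5 to 93.2 CPM in siMED12, varied little between libraries, and its blocked value of -0.04 ± 0.05 was close to 0, as were those of SMAD3 (0.03), SMAD5 (-0.03) and SMAD9 (-0.02). The sign of each of these values changed under at least 1 alternative.

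The inhibitors of the pathway were mixed. The inhibitory SMAD6 and SMAD7, both targets of the pathway that feed back on it, had blocked log2 fold changes of -0.07 ± 0.09 and 0.14 ± 0.09 (edgeR, adjusted p = 0.622 and 0.234). SMURF2, a ubiquitin ligase that removes SMADs and receptors, was higher with 0.24 ± 0.08 (edgeR, adjusted p = 0.0127), and SMURF1 had 0.14 ± 0.06 (adjusted p = 0.0687). Of the corepressors that bind SMADs in the nucleus, SKIL was higher with 0.24 ± 0.08 (edgeR, adjusted p = 0.019) and TGIF2 lower with -0.26 ± 0.08 (adjusted p = 0.00919). SKI and TGIF1 had -0.08 and -0.14 and were not called. These calls were all smaller than 0.3 on the log2 scale, and the groups of SMURF2, SKIL and TGIF2 overlapped.

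Of the 6 members listed as target genes, 3 were lower in the blocked fit and 0 higher, where 16.2% of all tested genes were lower and 17.1% higher. SMAD6 and SMAD7, targets that are listed with the inhibitors, were not called. Of the 8 genes in that branch, the blocked fit called 2 higher, SMURF2 and SKIL, and 1 lower, TGIF2. The 27 other target genes tested, described further on, split into 5 higher and 6 lower. PMEPA1 (ENSG00000124225.16, chr20:57648392-57711536), a membrane protein induced by TGF-beta and by androgen that holds back SMAD2 and SMAD3, measured 434, 333 and 321 CPM in siCtrl against 224, 144 and 180 CPM in siMED12. The highest siMED12 library was below the lowest siCtrl library. The log2 fold change was -0.99 ± 0.18 without the block (edgeR, adjusted p = 0.0597) and -0.998 ± 0.05 with it (adjusted p = 2.4e-19), a 2.0-fold difference with changes of -48.3%, -56.8% and -44.0% within pairs. NKILA, on the opposite strand, overlaps 343 of its exonic bases.

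The ID genes encode helix-loop-helix proteins without a DNA-binding region and are standard targets of BMP SMADs. ID1 (chr20:31605283-31606515) measured 204, 130 and 78.4 CPM in siCtrl against 155, 95.1 and 62.6 CPM in siMED12. The difference between replicate numbers was larger than that between treatments, and the groups overlapped, but ID1 differed by -24.2%, -27.0% and -20.1% within pairs. For ID1 the log2 fold change was -0.40 ± 0.39 without the block (edgeR, adjusted p = 0.694) and -0.40 ± 0.05 with it (adjusted p = 2.6e-08). ID3 lay at 204 to 316 CPM in siCtrl against 160 to 277 CPM in siMED12, with a blocked log2 fold change of -0.29 ± 0.04 (edgeR, adjusted p = 9.3e-07). ID2 and ID4 had blocked values of -0.07 and -0.04 and were not called (adjusted p = 0.23 and 0.605 in edgeR). KLF10, a zinc finger factor induced early by TGF-beta, measured 41.0, 104 and 66.0 CPM in siCtrl against 38.2, 101 and 78.0 CPM in siMED12, so that the replicate numbers differed more than the treatments, and its blocked value was 0.04 ± 0.06.

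**Figure D4:**
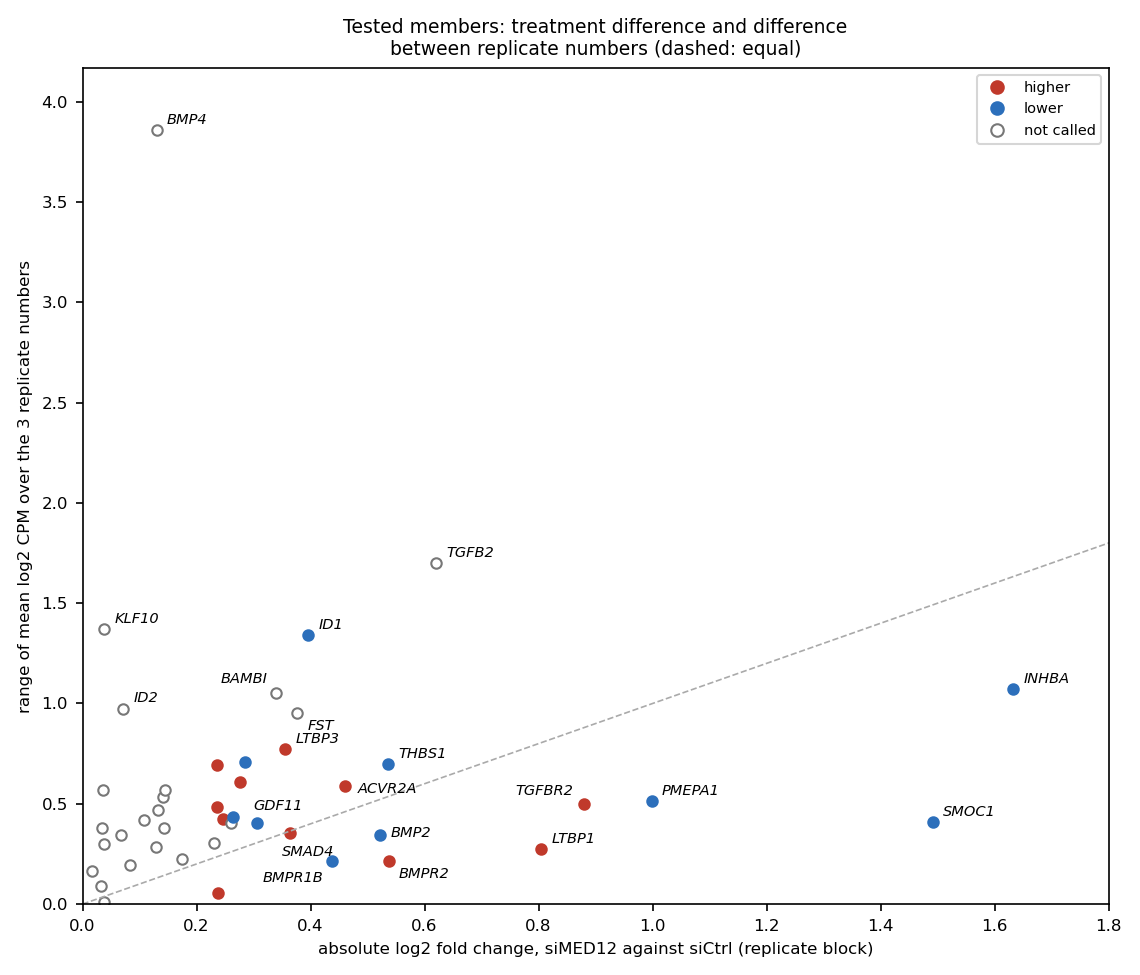
Absolute log2 fold change with the replicate block (x axis) against the range of mean log2 CPM over the 3 replicate numbers (y axis) for the 44 tested members; the dashed line marks equal values. SMOC1, INHBA, PMEPA1, TGFBR2, LTBP1, BMPR2, BMPR1B and BMP2 are among those below the line, and BMP4 (3.86), KLF10 (1.37) and ID1 (1.34) lie far above it.

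The range over replicate numbers was 1.34 on the log2 CPM scale for ID1, 1.37 for KLF10, 0.97 for ID2 and 0.77 for LTBP3, and only 0.22 for BMPR2, 0.27 for LTBP1 and 0.41 for SMOC1. The mitochondrial share of counts differed between replicate numbers as well, and its part in these differences was not tested. All 21 blocked calls rest on 3 pairs of libraries. Of these, 14 were kept in each blocked fit without 1 pair, and 7 were lost in at least 1 of those fits: INHBB, TGFBR2, ACVR1B, SMAD1, SMURF2, SKIL and TGIF2. Calls over all tested genes were 3058 higher and 2908 lower in the full blocked fit. They were 2070 to 2375 higher and 2578 to 2654 lower in the fits without a pair.

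Beyond the 47 members, 123 other genes of the pathway were listed by role, of which 90 were tested. Without the block 0 were higher and 2 lower (at an unadjusted p below 0.05, 9 and 7 in the same edgeR fit), and with the block 20 were higher and 14 lower, a share of 37.8% called, close to the 33.3% of all tested genes. By role, the blocked fit called 0 higher and 2 lower of 8 other ligands, 3 and 1 of 16 extracellular regulators, 2 and 2 of 11 receptors and associated proteins, 10 and 3 of 28 intracellular regulators and 5 and 6 of 27 other target genes.

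GDF15, a distant ligand of the family that is also induced by cell stress, measured 80.3, 106.6 and 54.5 CPM in siCtrl against 29.6, 33.1 and 26.0 CPM in siMED12. The groups were well apart, and the log2 fold change was -1.44 ± 0.23 without the block (edgeR, adjusted p = 0.0442). FN1, fibronectin, a matrix protein and TGF-beta target, measured 80.4, 84.0 and 70.3 CPM in siCtrl against 38.7, 30.4 and 26.4 CPM in siMED12, also without overlap, with a log2 fold change of -1.30 ± 0.15 (edgeR without block, adjusted p = 0.0274). Of the fits without a single library, the one without siCtrl replicate 3 kept both calls, the one without siMED12 replicate 3 kept that of FN1, and the other 4 kept neither. Those 4 fits called 0 of all tested genes. With library size only, the call of GDF15 was lost (edgeR, adjusted p = 0.0521). The ligand BMP6 was lower with the block (-1.004 ± 0.30), as were the follistatin relative FSTL3 (-0.73 ± 0.12) and the target ANGPTL4 (-0.72 ± 0.08), a lipoprotein lipase inhibitor. Without the block BMP6, FSTL3 and ANGPTL4 were not called (edgeR, adjusted p = 0.148, 0.118 and 0.114), and BMP6 had 18 to 49 counts a library. CCN2, a matricellular protein and standard TGF-beta target, was higher in siMED12. It measured 7.496, 15.8 and 12.1 CPM in siCtrl against 15.3, 34.2 and 28.0 CPM in siMED12. It was higher by 104.4%, 116.8% and 132.3% within pairs, with a log2 fold change of 1.13 ± 0.34 without the block (edgeR, adjusted p = 0.166) and 1.13 ± 0.10 with it (adjusted p = 1.5e-11). DLX3, a homeobox factor and BMP target, was higher with the block (0.92 ± 0.18), and so were CTDSP2 (0.50 ± 0.05), a phosphatase that acts on SMADs, and the integrin subunits ITGAV (0.43 ± 0.05) and ITGB8 (0.46 ± 0.12), which together release TGF-beta from its latent form. Without the block DLX3, CTDSP2, ITGAV and ITGB8 were not called (edgeR, adjusted p = 0.0949, 0.075, 0.153 and 0.677). The groups of ITGB8 overlapped, with increases of 10.8%, 76.2% and 40.3% within pairs. Targets of the pathway stood among both the higher and the lower genes.

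**Figure D5:**
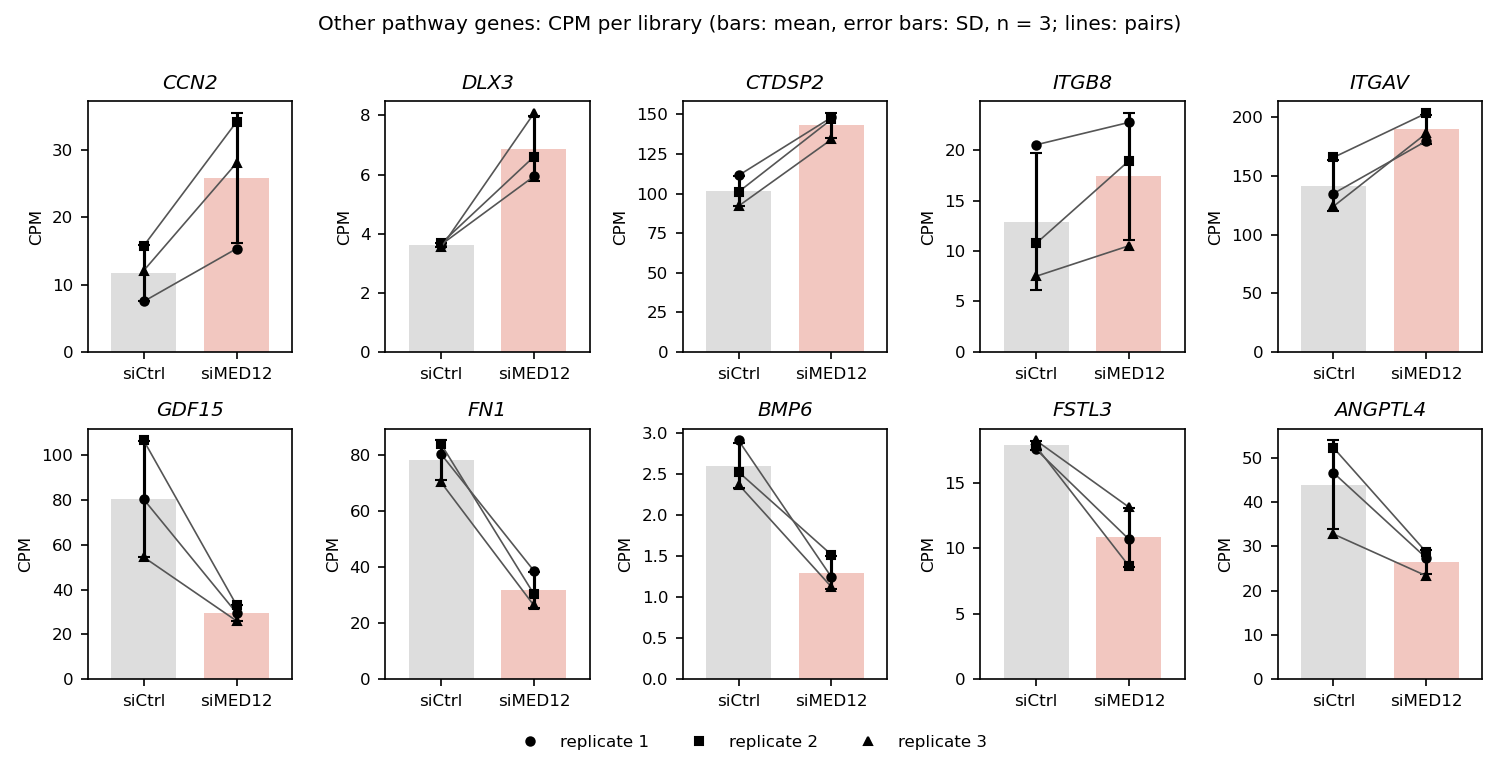
CPM in each library (y axis, from 0) of the 10 other pathway genes named from the blocked calls, 5 in each direction; bars are group means, error bars are SD (n = 3) and lines join libraries of the same replicate number. FN1 (at most 38.7 CPM in siMED12, at least 70.3 in siCtrl) and GDF15 fall in all pairs, and CCN2 rises in all 3 although its groups overlap.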

How the data were processed

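RNA-seq was analysed for 6 libraries of 22Rv1 cells, with groups and replicate numbers taken from the labels. The authors aligned and counted reads with Rsubread (version not stated) against GRCh38.p13 and Gencode release 43, and the deposited counts are raw reads per gene. The use of strand and of multiply matching reads was not stated. The deposited log2 CPM values were recomputed from the counts with a prior count of 2 to within 4.96e-09 and served one alternative.

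Counts were tested in R version 4.3.3 with edgeR version 4.0.16: expression filter, TMM scaling, quasi-likelihood F-test, Benjamini-Hochberg adjustment over 17901 genes and a threshold of 0.05. Standard errors are the log2 fold change over the root of F. The design held the treatment only, since the study's methods for differential expression give no term for a block. One figure legend speaks of a batch-corrected heatmap of these cells and names no batch, so the unblocked fit need not be the authors'. Deviations from group means correlated at 0.532, 0.373 and 0.643 between same-numbered libraries and at -0.46 to -0.0233 between others, so a paired fit with the number as a block is given where it changes a call. No replicates were duplicates (chi-square per degree of freedom at least 10.3).

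Members described in full were those called without the block, or called with it at an absolute log2 fold change of at least 0.3 and a mean of at least 1 CPM. Other pathway genes were named when called without the block, or as the 5 largest in each direction with it. Members and lists were chosen with earlier results of these data known. Some of the listed luminal markers are not reported here. Positions and exons came from Gencode release 44, and promoter windows from RefSeq. Alternatives were the replicate block, DESeq2 version 1.42.0 (size factors and Wald test), library size only, limma version 3.58.1 on log2 CPM, no filter beyond 1 count, and leaving out libraries or pairs. The fits were also run on simulated counts whose replicate effects were the same in both groups, which cannot show whether the blocked calls hold in these data.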

Additional observations from a re-analysis of the deposited data

How the results depend on the processing

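Of 765 alternative values for MED12 and the 44 tested members, 592 kept their direction and side of the threshold, 118 passed it anew, 10 no longer passed and 45 changed sign; the causes were not tested. With the replicate block, 11 members were higher and 10 lower, and 20 and 14 other pathway genes. Blocked fits gave 13 and 10 members and 26 and 12 other genes with library size only, and 11 and 10 members and 19 and 14 other genes with DESeq2 size factors. Blocked without replicate 1 they gave 8 and 10 members and 12 and 11 other genes, without replicate 2, 8 and 9 and 12 and 17, and without replicate 3, 8 and 10 and 14 and 14. Over all tested genes the blocked fit called 3058 higher and 2908 lower of 17901. With library size only these were 3807 and 2413, and with DESeq2 size factors 2960 and 3069. Without replicate 1 they were 2070 and 2578 of 18113, and without replicate 2, 2199 and 2654 of 18290. Without replicate 3 they were 2375 and 2579 of 17867. Without a block, the DESeq2 Wald test gave 2 and 2 members and 3 and 6 other genes, no filter beyond 1 count 2 and 2 and 2 and 4, and library size only 0 lower members and 1 lower other gene. Over all genes these fits called 331 and 493 of 17901, 186 and 290 of 34030, and 31 and 49 of 17901. Leaving out single libraries gave 0 to 1 lower members and 0 to 2 lower other genes. MED12 ranged from -1.90 to -1.45, and its call held in 2 of those 6 fits, without siCtrl or siMED12 replicate 3. The fits without replicate 1 or 2 of either group called 0 of all tested genes. The fit without siCtrl replicate 3 called 5 higher and 37 lower of 18336, and that without siMED12 replicate 3 called 8 and 29 of 18281.

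The log2 fold changes that changed sign belonged to members that were not called. BMP4 became -0.13 with the block, -0.47 with limma, -0.091 and -0.14 with the block and library size or DESeq2 size factors, and -1.20 blocked without replicate 3. With library size only, without and with the block, BMPR1A became 0.013 and 0.0045, SMAD2 0.0040 and 0.0041, SMAD5 0.010 and 0.0070, SMAD9 0.027 and 0.025 and ID4 0.0030 and 0.0048. Blocked without replicate 1, TGFBR3 became -0.046 and SMAD3 -0.055, without replicate 2 BMPR1A 0.0038 and SMAD9 0.045, and without replicate 3 SMAD3 -0.019 and KLF10 -0.068. Without single libraries and without a block, the ranges were -1.41 to 0.66 for BMP4, -0.091 to 0.23 for TGFBR3, -0.029 to 0.22 for ACVR2B, -0.23 to 0.11 for BMPR1A, -0.72 to 0.18 for BAMBI, -0.044 to 0.12 for SMAD3, -0.19 to 0.056 for SMAD5, -0.093 to 0.036 for SMAD9, -0.18 to 0.0093 for SMAD6, -0.062 to 0.29 for SMURF1, -0.32 to 0.17 for ID2, -0.15 to 0.079 for ID4 and -0.29 to 0.44 for KLF10. Depth limits INHBA, BMP4, TGFB2, FST and BAMBI, which had at most 78 counts in any library.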
